A study of Mus musculus with 2 samples.

Results

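The collagens are the extracellular matrix proteins that carry the genes named Col, a number, a and a number, 1 gene per polypeptide chain. Members were found by that symbol pattern through the RefSeq transcript printed beside each array probe. Of 44 mouse genes with such a symbol, 43 had a probe, out of 20884 named genes on the array, and Col12a1 had none that matched. Together they were read by 63 probes: 29 genes by 1 probe each and 14 by several. None of their spots was saturated or marked as an outlier.

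Both RNA samples came from epididymal fat of male C57/BL mice that was digested with collagenase. SPAD are differentiated small proliferative adipocytes, the progeny of cells that floated in the first spin (9 g for 1 sec) and sedimented in the next one (226 g for 3 min). SVCD are differentiated stromal vascular cells, taken from beneath the floating layer of that spin. Each population was grown in DMEM to 90% confluency, kept for 3 days with insulin, dexamethasone and IBMX, which induce adipocyte differentiation, and then for 2 days in DMEM. There was 1 single-colour Agilent array per group. The labels give no age and no number of mice or cultures behind an RNA, and no allele or transgene is named.

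Collagen chains wind around each other in triple helices, and the chain combination sets the type. Fibrillar types (I, III, V and others) form the tensile fibres of connective tissue, type IV forms the sheet-like network of basement membranes, and type VI forms beaded microfilaments in the space between. Every mature fat cell is wrapped in a basement membrane, and its matrix is known to be rich in types IV and VI, whereas fibroblasts are a main source of types I and III.

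Values are processed signals, the background-subtracted spot intensities on a linear scale. A difference is the log2 signal in SPAD minus that in SVCD after each array was scaled to its own 75th percentile (622 in SPAD, 678 in SVCD), and a gene was read from its brightest probe. No difference could be tested, since each group has 1 array. Where a pair of signals is given in brackets, SPAD comes first. The error given with ± is a spot error only. It starts from the SD between repeat spots of probes printed up to 10 times on the same array, taken at the signal of the gene. On each array that SD was divided by the square root of the number of spots of the gene's probe, and both arrays were combined. The SD between repeat spots ran from 0.05 for bright probes to 0.54 for dim ones. Spots were called well above background for 64.5% of probes in SPAD and 65.6% in SVCD. The dimmest such probe had a signal of 10.8 in SPAD and 8.6 in SVCD. Where a gene was above background on 1 array only, its fold is a lower bound against that floor, written "at least". This bound leaves out the spot error, which was large for dim genes (0.67 for Col13a1, 0.62 for Col2a1 and 0.53 for Col8a2).

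Of the 43 collagen genes, 31 (72.1%) were well above background on at least 1 array, close to the 74.8% of all named genes. Of these, 24 were above background on both arrays, 2 in SPAD alone and 5 in SVCD alone. Over all named genes, 3.27% were above background in SPAD alone and 4.16% in SVCD alone. Among the 24 measured on both arrays, the SPAD signal was higher by 2-fold or more in 7 (29.2%) and lower by as much in 3 (12.5%). The shares over 14074 genes measured on both arrays were 14.4% higher and 13.3% lower. By bound, both genes seen in SPAD alone and 4 of 5 seen in SVCD alone were past 2-fold, where 76.0% and 38.2% of all genes of those kinds were. With bounds included, 9 collagen genes were higher, 7 lower and 15 within 2-fold. The same count over 15625 genes gave 16.3% higher and 14.1% lower. The median of the 31 genes was 0.16, beside 0.06 over all genes, and the values spanned -5.02 to 3.50. The family thus had no common direction, and the spread lay between and within its classes.

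The absolute level of every difference depends on the scaling. Scaling to the spike-in controls (a log2 shift of 0.71 between arrays over 8 control probes) moved the median of all genes measured on both arrays from 0.07 to -0.77. The collagen split then became 4 higher and 13 lower (23.5% of those past 2-fold were higher, against 56.2% in the main scaling), and with normexp background correction it was 7 and 3 (70.0%). The same share over all genes was 14.4% with spike-in scaling, 53.6% in the main scaling and 50.9% with normexp. No collagen gene past 2-fold changed sign under the other scalings, normexp or the authors' deposited table. Of the genes past 2-fold, Col4a1, Col7a1 and Col20a1 (0.68, 0.69 and 0.66), Col2a1 (0.44) and Col13a1 (0.21) were within it with spike-in scaling. With normexp, dim genes came within it: Col2a1 (0.31), Col13a1 (0.21), Col4a5 (-0.83), Col14a1 (-0.64), Col24a1 (-0.64) and Col8a2 (-0.15). Normexp also brought Col11a2 to 1.22, Col11a1 to -2.73 and Col5a2 to -1.30. A gap between genes on the same arrays is untouched by a constant scaling, so gaps are given beside single values.

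**Figure D1:**
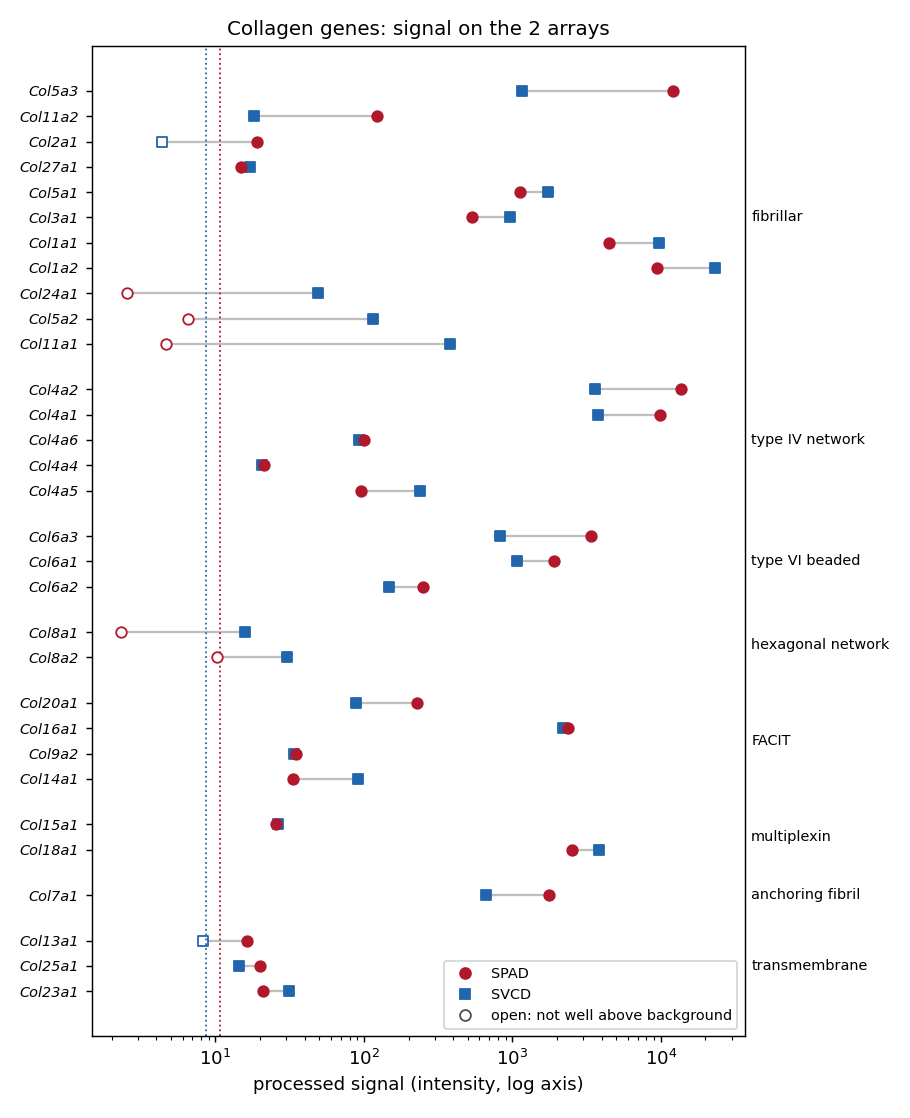
Processed signal (intensity, log axis) of the 31 collagen genes well above background on at least 1 array, by class, from the brightest probe of each gene on the SPAD array (circles) and the SVCD array (squares). Open symbols were not well above background, and dotted lines mark the dimmest probe called well above background on each array; Col5a3 and the type IV and VI chains Col4a1, Col4a2 and Col6a3 lie to the right in SPAD, and Col1a1, Col1a2, Col5a2 and Col11a1 to the left.

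The fibrillar class held the largest differences in both directions. All 11 fibrillar genes were above background somewhere: 3 were higher in SPAD past 2-fold, 4 lower and 4 in between, with a class median of -0.73. Col5a3, a type V chain of restricted tissue distribution, had a signal of 12000.1 in SPAD and 1153.2 in SVCD. That is 11.4-fold higher in SPAD (log2 difference 3.50 ± 0.08). Its partner Col5a1, the chain common to type V molecules, went from 1739.0 in SVCD to 1125.8 in SPAD (-0.50 ± 0.08). Col5a2, the other common partner, had a signal of 115 in SVCD and was not well above background in SPAD (6.55), at least 9.77-fold lower. The type V chains therefore differed unequally: Col5a3 exceeded Col5a1 by 4.01 ± 0.11 log2 units and Col5a2 by at least 6.79. With normexp these gaps were 3.88 and 4.69.

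Type XI, which sits inside cartilage fibrils and is a close relative of type V, was split in the same manner. Col11a2 had a signal of 123 in SPAD and 18.1 in SVCD, 7.38-fold higher (2.88 ± 0.32). Col11a1 had 381 in SVCD and 4.62 in SPAD, where it was not well above background, at least 32.4-fold lower. The gap between these chains was at least 7.90 log2 units, or 3.96 with normexp, which adds an offset to dim signals. Col2a1, the main cartilage collagen, was just above background in SPAD (19.1) and not in SVCD (4.39). It was at least 2.42-fold higher.

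The chains of type I, the most abundant fibre of connective tissue, were both lower in SPAD. Col1a2 had a signal of 9400.4 in SPAD and 23180.1 in SVCD, 2.26-fold lower (-1.18 ± 0.08). Col1a1 had 4476.9 and 9703.7, 1.99-fold lower (-0.99 ± 0.08) and just short of the 2-fold size. The gap between them, 0.19 ± 0.11, was less than 2 spot errors. Col3a1, the single chain of type III, which forms fibres together with type I, had 534 and 965 (-0.73 ± 0.09). Of the other fibrillar genes, Col24a1 was seen in SVCD alone (49.2, against 2.53 in SPAD), at least 4.18-fold lower. Col27a1 was dim and alike on both arrays, at 14.9 and 17 (-0.07 ± 0.53).

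Promoter windows from RefSeq (assembly GRCm38.p6, 250 bases before to 50 after the annotated start) are shown for the fibrillar genes Col5a3 and Col1a2, bright members that differed in opposite directions. Capitals mark matches on either strand to the CCAAT box (CCAAT), the GC box (GGGCGG) or the TATA box (TATAAA); of 32851 windows in the table, 37.4%, 35.7% and 13.6% hold them.
Col5a3 (chr9:20815018-20815317, minus strand): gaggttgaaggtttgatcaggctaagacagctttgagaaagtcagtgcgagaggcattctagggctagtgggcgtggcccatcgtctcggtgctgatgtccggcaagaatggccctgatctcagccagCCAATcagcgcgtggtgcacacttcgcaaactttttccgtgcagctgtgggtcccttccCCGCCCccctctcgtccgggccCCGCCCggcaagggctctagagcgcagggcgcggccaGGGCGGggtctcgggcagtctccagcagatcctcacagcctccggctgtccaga
Col1a2 (chr6:4505368-4505667, plus strand): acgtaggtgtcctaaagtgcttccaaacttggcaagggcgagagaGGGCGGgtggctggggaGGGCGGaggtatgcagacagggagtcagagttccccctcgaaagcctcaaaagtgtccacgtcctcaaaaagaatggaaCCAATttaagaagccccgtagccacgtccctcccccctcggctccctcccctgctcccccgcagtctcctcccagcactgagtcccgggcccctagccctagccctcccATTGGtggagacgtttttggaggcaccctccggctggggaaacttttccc
The Col5a3 window holds 1 CCAAT box and 3 GC boxes, and the Col1a2 window 2 of each. Neither contains TATAAA. Over the 35 collagen genes with a window, 13 held a CCAAT box, 22 a GC box and 5 a TATA box in at least 1 window. These matches are descriptions of the letters only.

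Type IV, the basement membrane collagen, was split between its major and its minor chains. Col4a1 and Col4a2, which together form the type IV molecule found in nearly all basement membranes, were both higher in SPAD. The Col4a1 probe was printed 10 times on each array. Its spots ran from 9336.1 to 10501.9 in SPAD (median 9891.3, mean 9937.8 ± 355, SD of 10 spots) and from 3579.7 to 4025.5 in SVCD (median 3792.5, mean 3788.5 ± 134). No SPAD spot overlapped an SVCD spot, and the difference was 1.52 ± 0.03, or 2.86-fold. These spots are repeats of 1 labelled RNA per group, not replicates of the cells. The error of 0.03 is that of a mean of 10 spots, whereas the Col4a2 probe had 1 spot. Col4a2 had a signal of 13637.0 in SPAD and 3617.7 in SVCD, 4.11-fold higher (2.04 ± 0.08). With spike-in scaling Col4a2 was at 1.20.

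**Figure D2:**
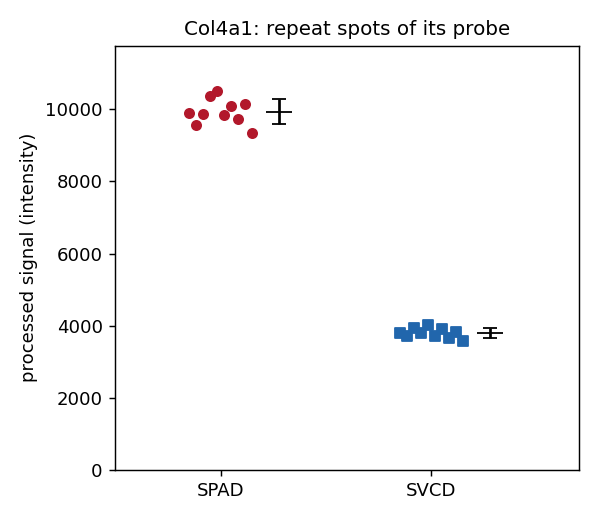
Processed signal (intensity, linear axis from 0) of the 10 repeat spots of the Col4a1 probe on the SPAD array (circles) and the SVCD array (squares), with their mean and SD beside them. The SPAD spots lie between 9336.1 and 10501.9 and the SVCD spots between 3579.7 and 4025.5, with no overlap; spots are repeats on 1 array each.

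These chains are encoded head to head on chromosome 8 with no coding gene between them. Their RefSeq windows overlap by 78 bases, and the annotated first bases of the transcripts overlap by 22 on opposite strands. They are shown because both genes were higher in SPAD, with the same capitals as above.
Col4a1 (chr8:11312777-11313076, minus strand): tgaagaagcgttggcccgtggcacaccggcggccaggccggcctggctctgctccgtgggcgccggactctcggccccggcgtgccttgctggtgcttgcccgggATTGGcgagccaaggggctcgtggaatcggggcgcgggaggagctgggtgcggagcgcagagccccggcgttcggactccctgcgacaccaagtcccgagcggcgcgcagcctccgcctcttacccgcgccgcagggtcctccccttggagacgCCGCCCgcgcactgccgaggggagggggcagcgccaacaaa
Col4a2 (chr8:11312555-11312854, plus strand): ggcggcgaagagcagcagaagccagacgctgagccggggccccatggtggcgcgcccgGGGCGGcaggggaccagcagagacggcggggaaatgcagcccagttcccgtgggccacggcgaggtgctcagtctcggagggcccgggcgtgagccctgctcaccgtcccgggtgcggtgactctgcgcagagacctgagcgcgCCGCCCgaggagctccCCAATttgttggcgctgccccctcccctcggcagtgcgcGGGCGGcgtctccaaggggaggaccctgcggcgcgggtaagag
The Col4a1 window holds 1 CCAAT box and 1 GC box, the Col4a2 window 1 and 3, and neither contains TATAAA. Despite the shared window, the chains did not differ by the same amount: Col4a2 exceeded Col4a1 by 0.52 ± 0.08 log2 units.

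The minor type IV chains, known from the kidney filter and other specialised basement membranes, did not follow. Col4a5 had a signal of 95.8 in SPAD and 240 in SVCD, 2.30-fold lower (-1.20 ± 0.13), which put it 2.72 ± 0.13 below Col4a1. Its head-to-head neighbour on the X chromosome, Col4a6, gave 100 and 92.9 on its brightest probe (0.24 ± 0.13) but 18.2 and 98.5 on the other (-2.31), so its direction is uncertain. Col4a4 was dim at 21.1 and 20.6 (0.16 ± 0.50), the only 1 of its 3 probes well above background on either array. Col4a3 was well above background on neither array.

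The common type VI chains, whose microfilaments link cells to the surrounding fibres, all had positive differences, of which Col6a3 alone passed 2-fold. Col6a3, the longest of them, had a signal of 3398.5 in SPAD and 830 in SVCD, 4.47-fold higher (2.16 ± 0.08). Col6a1 had 1895.3 and 1075.1 (0.94 ± 0.08), and Col6a2, its tandem neighbour on chromosome 10, 250 and 147 (0.89 ± 0.13). The neighbours differed from each other by 0.05 ± 0.15, within the spot error, while Col6a3, on another chromosome, exceeded Col6a1 by 1.22 ± 0.11. With spike-in scaling Col6a1 and Col6a2 were at 0.10 and 0.05 and Col6a3 at 1.32. The later-described chains Col6a4, Col6a5 and Col6a6, neighbours on chromosome 9, were well above background on neither array, on each of their 2 probes.

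Col7a1, which builds the anchoring fibrils under the epidermis, had a signal of 1769.7 in SPAD and 669 in SVCD, 2.89-fold higher (1.53 ± 0.08). Of the fibril-associated collagens (FACIT), which coat fibrils without forming them, 4 of 8 were measured, 1 of them higher, 1 lower and 2 within 2-fold. Col20a1 was 2.83-fold higher (229 and 88.4, spot error 0.13 on the log2 scale), and its other probe gave 1.42. Col14a1 was 2.53-fold lower on its brightest probe (33.1 and 91.4, -1.34 ± 0.19), but its other, dim probe gave 0.18. Col16a1 was nearly equal at 2387.5 and 2199.0 (0.24 ± 0.08), with its other probes at 0.35 and -0.07, and Col9a2 was at 34.7 and 33.7 (0.17 ± 0.23). Col9a1, Col9a3, Col19a1 and Col22a1 were not above background.

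The multiplexins, which carry cleavable anti-angiogenic ends and sit at basement membranes, were within 2-fold on their brightest probes. Col18a1, the source of endostatin, had 2533.3 in SPAD and 3839.3 in SVCD (-0.47 ± 0.08), and its other probe, also bright, gave -1.21 (1603.1 and 4032.4). Both Col18a1 probes were lower in SPAD, by amounts that differ beyond the spot error. Col15a1 was dim and equal at 25.6 and 26.5 (0.08 ± 0.50), and only 1 of its 3 probes was well above background on either array.

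The remaining classes lay near background. The network collagen genes Col8a1 and Col8a2, known from vessel walls and the cornea, were seen in SVCD alone, at 15.9 and 30.5. Col8a2 was at least 2.59-fold lower in SPAD on its brightest probe, with 12.2 and 12.8 on the other, and Col8a1 at least 1.35-fold lower. Of the transmembrane collagens, Col13a1 was just above background in SPAD alone (16.4, at least 2.08-fold higher). Col25a1 (20 and 14.5, 0.59 ± 0.67) and Col23a1 (21 and 31.2, -0.44 ± 0.50) differed by less than the spot error. Only 1 of 4 Col25a1 probes and 2 of 3 Col23a1 probes were well above background on either array. Col10a1, Col17a1, Col26a1 and Col28a1 were well above background on neither array.

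**Figure D3:**
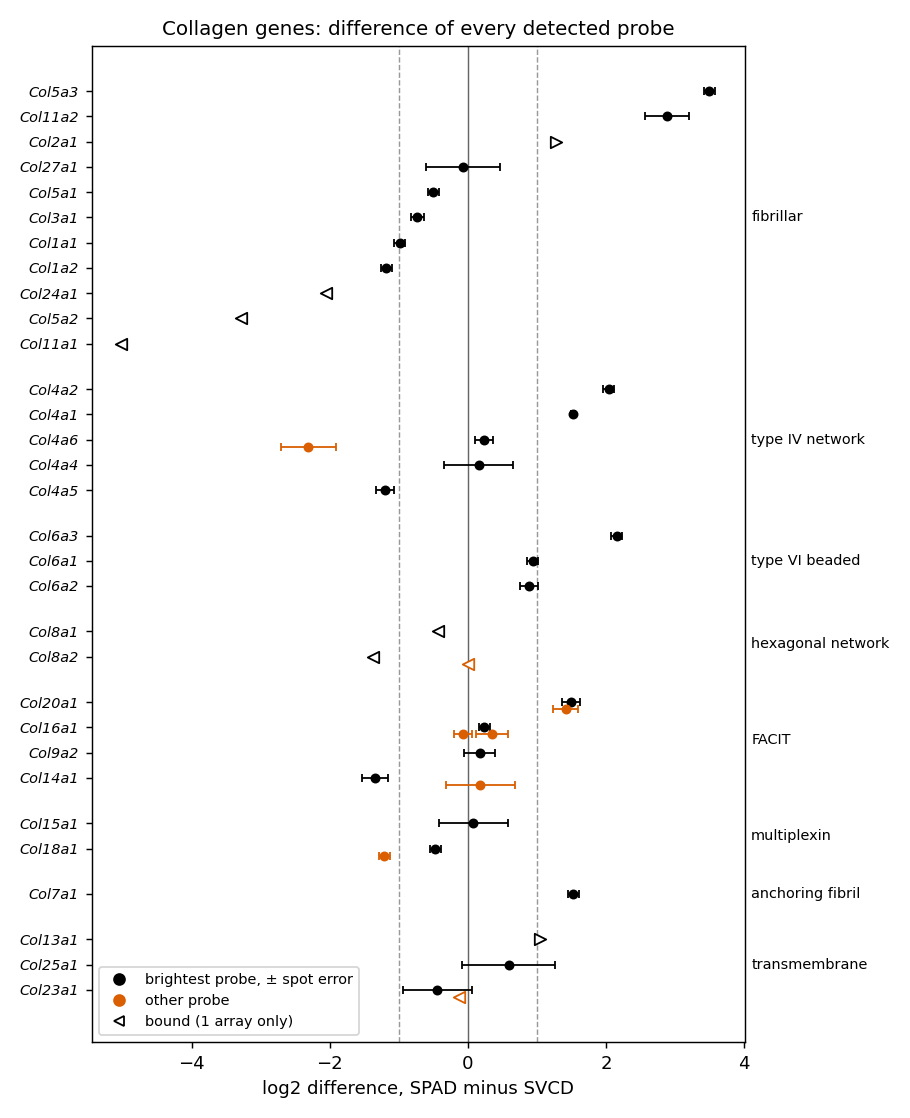
Log2 difference (SPAD minus SVCD, scaled to the 75th percentile) of every collagen probe well above background on at least 1 array, by class. Black points are the brightest probe of a gene and orange points other probes, bars are the spot error, open triangles are lower bounds and dashed lines mark 2-fold. Fibrillar genes span -5.02 to 3.50 and the measured type VI genes lie between 0.89 and 2.16. The probes of Col4a6, Col14a1 and Col18a1 stand apart from each other, while both Col8a2 probes are bounds.

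Several collagen genes are neighbours on their chromosome. Of the pairs with no coding gene between them, only Col4a1 with Col4a2 were both past 2-fold in the same direction in the main scaling. With spike-in scaling Col4a1 (0.68) was within 2-fold, while Col3a1 (-1.57) and Col5a2 (-4.13, a bound) were both lower past it. Col6a1 (0.94) with Col6a2 (0.89) were short of 2-fold in the main scaling, and at 0.10 and 0.05 with spike-in scaling. On chromosome 1, Col3a1 was at -0.73 and Col5a2 at least 2.56 log2 units lower than that, a gap of 0.65 with normexp. Col4a6 and Col4a5 differed from each other by 1.44 ± 0.18 on their brightest probes, but the other Col4a6 probe (-2.31) lay below Col4a5 (-1.20), which turns that gap. Across classes, Col4a1 exceeded Col1a1 by 2.51 ± 0.08 and Col4a2 exceeded Col1a2 by 3.22 ± 0.11. The ratio of these major type IV chains to type I signal was thus higher in SPAD. Under the other scalings and corrections the gap to Col1a1 ran from 2.48 to 2.51 and that to Col1a2 from 3.22 to 3.29. The minor chain Col4a5 (-1.20) did not exceed Col1a1 (-0.99) or Col1a2 (-1.18).

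Genes that make, cut, crosslink and bind collagen were taken as 7 lists with 64 genes that had a probe, Itga10 having none that matched. Of these, 60 were above background on at least 1 array: 18 were at least 2-fold higher in SPAD, 13 lower and 29 in between (median 0.40), beside 16.3% higher and 14.1% lower over all 15625 genes. With spike-in scaling the counts were 6 and 20, beside 1006 and 5992 over all genes.

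In the hydroxylation list, whose enzymes stabilise the helix and prepare crosslinks, 4 of 12 measured genes were higher and 1 lower. The lysyl and prolyl hydroxylase genes Plod2 (1559.5 and 639, log2 1.41 ± 0.08) and P4ha2 (13291.3 and 4909.2, 1.56 ± 0.08) were higher. P3h3, of the prolyl 3-hydroxylase family, was at 1.58 ± 0.08, and its relative P3h4 at -1.41 ± 0.08. For folding and export, 2 of 10 were lower and none higher. Serpinh1, the collagen chaperone HSP47, was 2.04-fold lower (3051.0 and 6803.4) and Creb3l1, a transcription factor that drives collagen secretion, 4.72-fold lower. The folding factor gene Fkbp10 was at -0.97 ± 0.08 and the export receptor gene Mia3 at 0.68 ± 0.08.

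Of the propeptide cleavage genes, Adamts2, the main N-propeptidase of fibrillar procollagens, differed most, at 15713.5 in SPAD and 1839.6 in SVCD. That is 9.32-fold higher (3.22 ± 0.08), with its other probe at 3.30. Adamts14, a related protease, was at -0.96 ± 0.11 and the C-propeptidase enhancer Pcolce2 at 0.85 ± 0.09, while Tll1 gave -1.08 on its brightest probe and, as a bound, -4.13 on another. Of the 5 crosslinking enzymes, Lox was 3.44-fold higher (5173.4 and 1640.0, 1.78 ± 0.08), with its other probe at 3362.7 and 1209.8, and Loxl2 was at 0.83 ± 0.08. Loxl3 was 2.92-fold lower and Loxl4 at least 5.07-fold lower.

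Genes of proteins that sit on fibrils were higher past 2-fold in 6 of 9 and lower in none. The proteoglycan gene Dcn, which binds type I fibrils, had 13763.0 in SPAD and 4111.4 in SVCD (1.87 ± 0.08). Tnxb (1.88 ± 0.18) and Comp (1.72 ± 0.18) were higher from dim signals, and Dpt was seen in SPAD alone, at least 2.57-fold higher. Among 9 receptors, 4 were higher and 2 lower. Itga1, whose integrin binds type IV and type I collagen, was 40.2-fold higher on its brightest probe (5482.9 and 149), but 1.36 on the log2 scale on the other. Ddr2, a kinase receptor for fibrillar collagen, was 3.83-fold higher and the uptake receptor gene Mrc2 3.70-fold, with another Mrc2 probe at 0.61. Lair1, an inhibitory receptor of leukocytes, was 23.8-fold lower, and the receptor gene Ddr1 2.87-fold lower (142 and 447, -1.52 ± 0.11).

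The list of matrix proteases and their inhibitors was lower in more genes than it was higher, 5 against 2 of 9. Mmp13, a collagenase of fibrillar types, was 10.6-fold lower (218 and 2534.7), and the type IV-degrading gelatinase gene Mmp9 at least 8.24-fold lower. The higher ones were Mmp2, the other gelatinase (2532.8 and 821, 3.37-fold), and the collagenase gene Mmp8 (9685.6 and 4305.4, 2.45-fold). The inhibitor gene Timp3 was 26.5-fold lower, and Timp2 10.4-fold on its brightest probe, although its other probe gave only -0.78. The bright inhibitor gene Timp1 went the other way, within 2-fold (93900.6 and 58019.3, 0.82 ± 0.08).

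**Figure D4:**
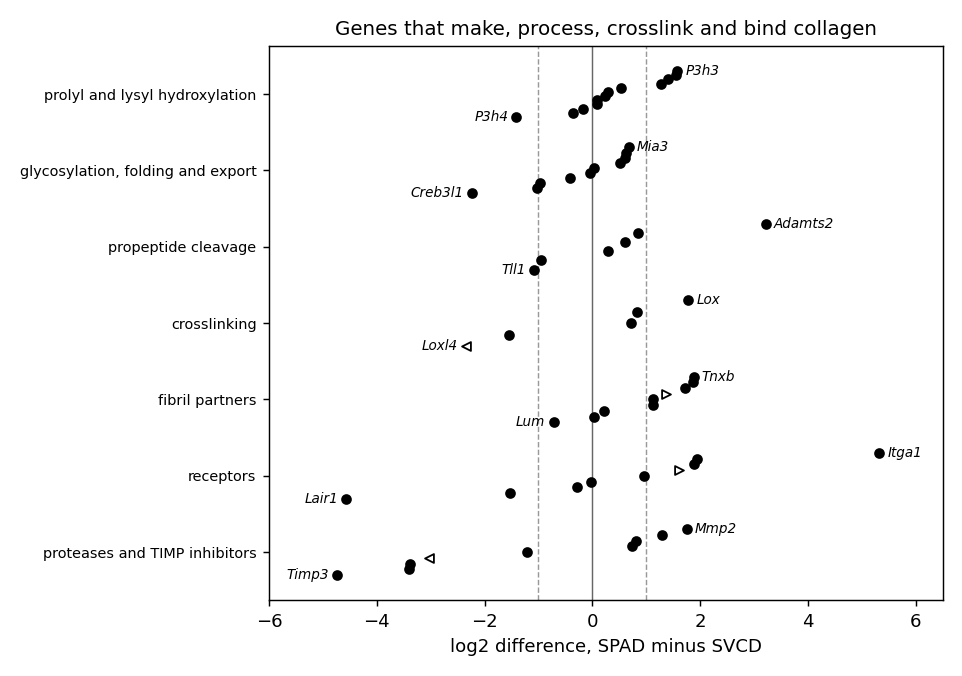
Log2 difference (SPAD minus SVCD) of the 60 measured genes that make, process, crosslink and bind collagen, 1 row per list, with the highest and lowest gene of each named. Filled points were above background on both arrays, open triangles are lower bounds and dashed lines mark 2-fold; 18 genes lie at or beyond 2-fold higher and 13 at or beyond 2-fold lower.

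Cell type markers differed beside the collagen classes, and their part in the collagen differences was not tested. Beside every marker count below, the shares past 2-fold over all 15625 genes were 16.3% higher and 14.1% lower. All-gene counts were 1006 higher and 5992 lower with spike-in scaling, 1476 and 1422 with normexp, and 2177 and 2533 with no scaling. In RNA of a whole culture, fewer cells of a type and less RNA per cell cannot be told apart. Mature adipocyte markers were higher in SPAD in 10 of 12 measured genes (median 3.80) and lower in 1, the lipase gene Lpl (2806.3 and 20821.3, 6.80-fold lower), with Lep not above background on either array. Their summed signal was 156167.3 in SPAD and 77688.9 in SVCD. Most of the SPAD sum was Fabp4 (108495.2 and 31256.7), and most of the SVCD sum was Fabp4, Cd36 and Lpl. Cd36 was within 2-fold (21441.9 and 24721.1, -0.08 ± 0.08). Endothelial markers, from cells that also lay down type IV, were higher in 10 of 12 (median 2.87) and lower in none, or lower in 2 with spike-in scaling, with sums of 38482.9 and 10132.3. Sox17 and Robo4 were 13.3-fold and 10.6-fold higher, Erg had a log2 difference of 3.43, and all 12 were above background on both arrays. Kdr (2089.6 and 3202.4, -0.49 ± 0.08) and Vwf (968 and 1991.9, -0.92 ± 0.09) went the other way, within 2-fold. With no scaling 1 endothelial gene was lower past 2-fold. Progenitor and fibroblast markers, from cells that make types I, III and VI, were higher in 6 of 11 and lower in none (sums 36007.1 and 10143.6), led by Thy1 (8.72-fold). Of the 6, Dpt was a bound from a SPAD signal of 20.2. Lum (56.6 and 102, -0.72 ± 0.19) and Cd34 (341 and 501, -0.43 ± 0.09) went the other way, within 2-fold. With spike-in scaling 3 progenitor and fibroblast markers were higher and 2 lower, and with normexp 3 were higher. Dpp4 was not above background on either array. Pericyte markers were higher in 4 of 6 and lower in 1, Cspg4 (63.2 and 183, 2.66-fold lower), or lower in 0 with normexp. Their sums were 4210.6 and 1143.8, and most of the SPAD sum was Ndufa4l2 (3226.7). Rgs5 led (7.19-fold, spot error 0.55, SVCD signal 15), and Kcnj8 was not above background.

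For the next lists too, the shares over all 15625 genes were 16.3% higher and 14.1% lower past 2-fold. Smooth muscle and myofibroblast markers were lower in 6 of 9, with sums of 19255.2 in SPAD and 215248.2 in SVCD. They were higher in 1, Postn (3788.6 and 714, 5.78-fold higher, 2.53 ± 0.08). Cnn1 was 40.7-fold, Acta2 13.7-fold and Tagln 12.0-fold lower, while Lmod1 and Myocd were above background in SVCD alone. Macrophage markers were lower in 6 of 9, Cd68 having no matched probe (sums 124395.2 and 215658.0), with Fcgr1 not above background in SPAD. Lyz2 (98428.9 and 84459.1, 0.35 ± 0.08) and Cd14 (10421.3 and 10566.7, 0.11 ± 0.08) went the other way, within 2-fold. Most of the SPAD sum was Lyz2. Mesothelial markers were lower in 5 of 8 (sums 1270.8 and 11771.7), with Upk3b, Lrrn4 and Upk1b not above background in SPAD and Krt8 47.7-fold lower. Schwann cell markers went both ways (2 of 5 higher, 2 lower, sums 1459.0 and 7299.6), with 0 higher under spike-in scaling or normexp.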

How the data were processed

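The scanner software was Agilent Feature Extraction 10.7.3.1, as the submitters' processing notes name it. Deposited scanner values are processed intensities, background-subtracted on a linear scale, with flags for spots well above background, saturated or outlying, per the file headers. A deposited table of the authors on a log2 scale is centred per probe over both arrays (column medians 0.16 and -0.16). Its column differences equalled the scanner log2 differences plus a constant shift of 0.12; the sources used here do not give how it was scaled.

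Here, control spots (1377 of 44397) and 73 (SPAD) and 85 (SVCD) outlier spots were left out, repeat spots were averaged on the log2 scale, and each array was scaled to its 75th percentile. RefSeq names (GRCm38.p6, matched without versions) were found for 27506 of 39425 probes, and 11919 stayed unnamed; transcripts outside that table could not be matched. Whether probes bind near-identical transcripts was not checked. The size that counted was a log2 difference of 1. Every collagen gene above background on at least 1 array is named, with up to 4 genes per collagen-processing list and up to 3 per marker list by size. Of the marker lists, Lpl, Fabp4, Cd36, Kdr, Vwf, Lum, Cd34, Cspg4, Postn, Lyz2 and Cd14 were named after their values were seen. So were Mmp2, Mmp8, Timp1, Ddr1 and marker genes singled out for being below background. The members, lists and rules were chosen with earlier results of these data known. Calculations used Python 3.11.15 and limma 3.58.1 and were tested on simulated data.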

Additional observations from a re-analysis of the deposited data

How the results depend on the processing

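Alternatives were quantile normalization, no scaling, spike-in scaling, normexp, the authors' table, outlier spots kept, other probe and filter rules and other sizes. The planned normexp on mean signals was not run, since the files used hold median signals; these were used instead, a choice made after seeing the data. Under the first 6 of these no collagen gene past 2-fold changed sign, but Col14a1 (-1.34) was at 0.18 on its other probe. Of the 31 measured genes, 6 within 2-fold changed sign with spike-in scaling, 2 with quantile normalization and 1 each with no scaling and with normexp.

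With spike-in scaling 4 collagen genes were at least 2-fold higher and 13 lower, and the median was -0.68 (fibrillar -1.57, type IV -0.60, type VI 0.10, FACIT -0.63, transmembrane -0.25); 6 of the collagen-processing genes were higher and 20 lower. Their offset from the all-gene median did not move, since this scaling is a constant. With normexp 3 collagen genes were lower in place of 7, and the transmembrane median was 0.18 in place of 0.59. Genes above background on both arrays alone gave 3 lower and a transmembrane median of 0.07. Without a filter on dim probes the type VI median was 0.68 in place of 0.94. At a 4-fold size 4 genes were higher and 3 lower. Dim genes are limited by a combined spot error of up to 0.69. No paired analysis was possible because each group has 1 array.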
